A study of Mus musculus with 12 samples.

Results

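The NLRP3 inflammasome and its effectors were followed in dorsal root ganglia (DRG) of mice through 10 genes chosen by symbol, Nlrp3, Pycard, Casp1, Casp4, Gsdmd, Il1b, Il18, Nek7, Txnip and P2rx7, out of the 49315 genes in the deposited table. NLRP3 is a cytosolic sensor that oligomerizes when a cell is injured or loses potassium, and it recruits the adaptor ASC, encoded by Pycard, which in turn gathers and activates caspase-1. Caspase-1 cleaves the precursors of interleukin-1β and interleukin-18 and cuts gasdermin D, whose fragments open pores in the plasma membrane. The machinery is best known from macrophages and other myeloid cells, where Nlrp3 and Il1b transcripts are induced through NF-κB before the complex is triggered.

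The samples were DRG of 12 mice aged 10 months, 6 of genotype Postn-Cre(+);Nf2 flox/flox (Nf2) and 6 that carried Fak1 flox/flox in addition to those alleles (DKO), each genotype with 3 mice labelled male and 3 labelled female. Both groups therefore carried the Nf2 deletion, and no mouse with intact Nf2 was analysed here. The Cre recombinase was driven by the Periostin promoter, so recombination was directed to the Schwann cell lineage and not to every cell of the ganglion. About 8 ganglia per mouse were flash frozen and combined in 1 poly(A)-selected library, and the comparison asked how loss of focal adhesion kinase (Fak, annotated as Ptk2) on the Nf2-deficient background changed the transcriptome.

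Libraries held 21129191 to 41250329 counted reads, and levels are given as CPM, a gene's count scaled to a common library total of 1000000 reads. Ptk2, the gene deleted in DKO only, was at 65.8 to 75.5 CPM in Nf2 and at 46.5 to 76.0 CPM in DKO, so the targeted gene did not separate the genotypes in whole-tissue RNA (edgeR adjusted p = 0.529). The count covers the whole gene and not the floxed exons alone, so it is a weak check of the labels. The library of mouse 702, labelled male, had Xist at 496 CPM and Ddx3y at 0.525 CPM, which are levels of the mice labelled female. Marker genes of sensory neurons (7862 to 10928 summed CPM) and Schwann cells (8674 to 12407 summed CPM) were abundant in every library. Skeletal muscle markers ranged from 13.1 to 932 summed CPM in Nf2 (mean 501) and from 18.0 to 303 in DKO (mean 112). All 10 of these genes were lower in DKO, with a median log2 fold change of -2.16. None passed an adjusted p of 0.05 in edgeR, but 9 had an unadjusted p under 0.05, against 14.9% of all genes tested.

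Of the 10 inflammasome genes, 9 had a lower estimate in DKO than in Nf2, and 1, Nlrp3, passed an adjusted p of 0.05 in the comparison over all genes. Among the 18295 genes tested, 172 (0.940%) passed, 104 of them lower in DKO (0.568%), and 49.0% of genes had a fold change below 0. An unadjusted p under 0.05 was reached by 5 of the 10 (Nlrp3, Casp1, Casp4, Gsdmd and Il1b), against 14.9% of all genes. The median log2 fold change was -0.32 over the 10 genes and 0.005 over all genes tested. The 10 genes were chosen with earlier results of these data known, so these counts are descriptions. All 10 passed the filter on low counts. The mean ± SD of each gene and the 12 single values are drawn in the panels of CPM by mouse.

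**Figure D1:**
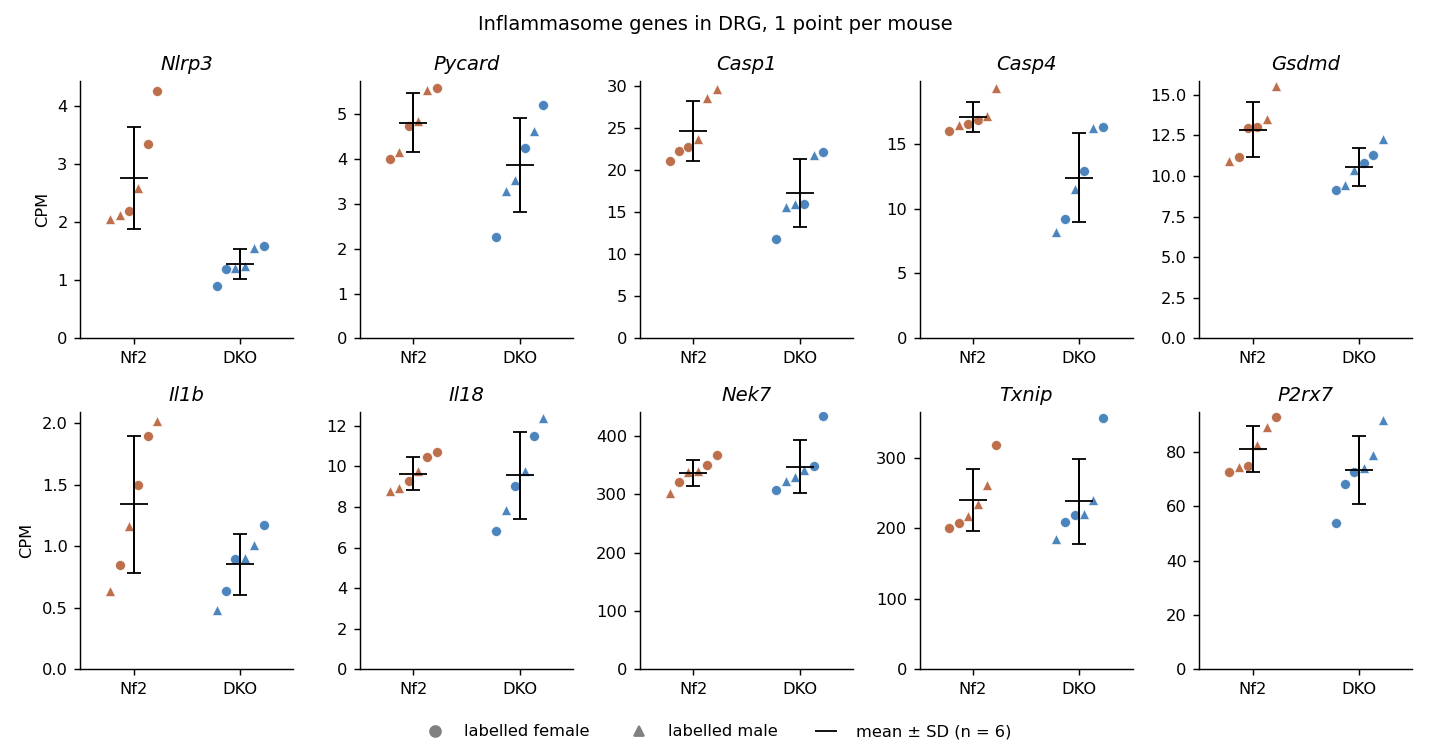
CPM (linear axes from 0) of the 10 genes in 6 Nf2 and 6 DKO mice, 1 point per mouse, circles for mice labelled female and triangles for mice labelled male, with the mean ± SD (n = 6) in black. The Nlrp3 points of DKO, 0.899 to 1.59 CPM, all lie below those of Nf2, 2.05 to 4.26 CPM, whereas the genotypes overlap in the other 9 panels.

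Upstream sequences are shown for the sensor and for the neighbouring caspase genes Casp1 and Casp4, the members with the lowest unadjusted p. RefSeq windows on build GRCm38.p6 were at hand for 9 of the 10 genes (12 windows, each the 250 bases before an annotated transcription start). Both Nlrp3 windows are on the plus strand of chromosome 11, the first at chr11:59541319-59541568, which ends at the first base of the gene in GENCODE, and the second at chr11:59542436-59542685. The Casp1 window is chr9:5298267-5298516 and the Casp4 window shown, 1 of 2, is chr9:5308599-5308848, both on the plus strand. The latter ends inside the gene as placed by GENCODE, which starts at 5308828. Capitals mark matches, on either strand, to the PU.1 core GAGGAA and to the κB-type string GGGANTTCC, letters that were settled on with these windows already seen.
Nlrp3, first window: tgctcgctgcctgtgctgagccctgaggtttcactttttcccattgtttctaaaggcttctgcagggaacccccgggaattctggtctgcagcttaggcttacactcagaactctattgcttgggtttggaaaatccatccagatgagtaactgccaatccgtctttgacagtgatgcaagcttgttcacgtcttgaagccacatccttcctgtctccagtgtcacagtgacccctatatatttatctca
Nlrp3, second window: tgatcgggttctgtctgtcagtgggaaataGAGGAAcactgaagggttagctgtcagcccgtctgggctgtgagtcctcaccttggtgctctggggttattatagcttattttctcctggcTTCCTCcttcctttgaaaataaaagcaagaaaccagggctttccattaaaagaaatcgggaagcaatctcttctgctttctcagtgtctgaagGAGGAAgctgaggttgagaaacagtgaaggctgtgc
Casp1: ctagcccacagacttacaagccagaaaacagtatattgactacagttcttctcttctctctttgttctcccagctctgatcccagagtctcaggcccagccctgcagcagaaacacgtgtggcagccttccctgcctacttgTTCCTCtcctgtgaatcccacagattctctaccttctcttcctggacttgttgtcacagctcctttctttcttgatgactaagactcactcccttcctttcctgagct
Casp4: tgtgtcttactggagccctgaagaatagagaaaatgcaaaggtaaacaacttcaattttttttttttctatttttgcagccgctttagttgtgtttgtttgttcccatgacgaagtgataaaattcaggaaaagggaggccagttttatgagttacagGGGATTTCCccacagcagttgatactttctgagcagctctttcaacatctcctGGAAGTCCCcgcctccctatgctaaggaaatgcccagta
PU.1 is the factor that sets up myeloid gene expression, and κB sites bind NF-κB. The second Nlrp3 window held 3 PU.1 cores, beginning 220, 129 and 36 bases before the start, and the first held none. The Casp1 window held 1 PU.1 core, 108 bases before the start. The Casp4 window shown held 2 κB-type strings, 92 and 39 bases before the start, and no PU.1 core. The other Casp4 window, chr9:5308610-5308859, overlaps it and held the same strings 103 and 50 bases before its own start. Over the 32851 mouse windows of the same table, 23.3% held a PU.1 core and 1.43% a κB-type string, so the first motif is common and the second scarce. The TATA box string TATAAA (12.4% of all windows, either strand) was found for Il1b and Il18 alone among the 12 windows. For Il1b it lay on the strand of the gene, 31 bases before the start. For Il18 it lay on the opposite strand, 175 bases before the start. The matches describe letters only, and no binding was measured.

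The sensor showed the clearest difference. Nlrp3 (chromosome 11, 59541568 to 59566956 on the plus strand of GRCm38) was at 2.05 CPM in the lowest, 2.39 in the median and 4.26 in the highest Nf2 mouse. In DKO it was at 0.899, 1.23 and 1.59 CPM, so all 6 DKO mice lay below all 6 Nf2 mice. Such a complete separation toward lower values was seen for 1.04% of genes tested, and in either direction for 1.95%. The fold change was -1.12 ± 0.21 on the log2 scale (SE, edgeR adjusted p = 0.0232, n = 6 per genotype), and by p Nlrp3 stood 94th of the 18295 genes. Counts were small, from 19 to 114 reads per library, and the interval for the lowest library, 19 reads, spanned 0.541 to 1.40 CPM (exact Poisson, 95%, counting error only). The study singled out Nlrp3 in these same libraries, so its test is not independent evidence.

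Nlrp3 varied more among Nf2 mice than among DKO mice, with SDs of 0.876 and 0.258 CPM around means of 2.76 and 1.28 CPM. The highest values belonged to Nf2 mice 1049 and 1048, both labelled female, at 4.26 and 3.34 CPM. Leaving out mouse 1049 gave a log2 fold change of -0.96 (adjusted p = 0.0470). The adjusted p moved just above the threshold without DKO mouse 886 (-1.10, adjusted p = 0.0520) or DKO mouse 914 (-1.10, adjusted p = 0.0586), and stayed below it without any 1 of the other 10 mice. With the mean log2(CPM + 1) of the 10 muscle markers as a covariate the estimate was -0.99 and edgeR's adjusted p 0.0810. Muscle marker RNA was highest in Nf2 mice 918 (932 summed CPM), 1049 (753), 884 (651) and 1048 (573), and its part in the Nlrp3 difference beyond that fit was not tested.

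Sex did not separate the response of the sensor within the error of this design. In mice labelled female Nlrp3 was at 3.27 ± 1.03 CPM in Nf2 and 1.23 ± 0.349 in DKO (SD, n = 3 each), and in mice labelled male at 2.26 ± 0.290 and 1.34 ± 0.190. The genotypes did not overlap within either label, which follows from their separation over all 12 mice and adds nothing to it. The genotype by sex term was 0.58 ± 0.40 on the log2 scale (edgeR adjusted p = 0.920). Of all genes, 2 passed for that term (0.0109%) and 3 for male against female (0.0164%), and none of the 10 inflammasome genes passed either, also at an unadjusted p under 0.05. Mouse 702 stood among the males in these models, and without it the count of inflammasome genes past the threshold was 0 as well for both terms.

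The adaptor Pycard, whose product ASC links sensor to caspase, was lower in estimate but not past the test. It was at 3.99, 4.80 and 5.57 CPM in the lowest, median and highest Nf2 mouse and at 2.26, 3.90 and 5.21 CPM in DKO. The groups overlapped, with 3 DKO mice below the lowest Nf2 mouse, and the log2 fold change was -0.34 ± 0.18 (edgeR adjusted p = 0.415). The gene Gm45205 overlaps Pycard on the opposite strand with 8 to 30 reads per library beside 53 to 162 for Pycard. The handling of strand in counting is not given in the sources used here, so reads of the pair may not be separated.

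The inflammatory caspases had the next lowest unadjusted p after the sensor. Casp1, which encodes the protease of the complex, was at 21.2, 23.3 and 29.7 CPM in the lowest, median and highest Nf2 mouse. In DKO it was at 11.8, 16.04 and 22.2 CPM. All 6 DKO mice were below the Nf2 mean of 24.7 CPM and 4 of them below the lowest Nf2 mouse. Its log2 fold change of -0.54 ± 0.15 had an unadjusted p of 0.0033 and missed the threshold in edgeR (adjusted p = 0.112), but passed it in DESeq2 (adjusted p = 0.0254) and in limma voom (adjusted p = 0.0392). Those fits called more genes, 4.54% of all genes in DESeq2 and 2.85% in limma voom against 0.940% in edgeR. Over the remaining alternatives the Casp1 estimate lay between -0.66 and -0.40 without an adjusted p under 0.05.

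Casp4, encoding the caspase (caspase-11) that senses cytosolic lipopolysaccharide, had a tight Nf2 group and a wide DKO group. The Nf2 mice were at 15.99, 16.7 and 19.3 CPM (lowest, median, highest) and the DKO mice at 8.16, 12.2 and 16.3 CPM. As for Casp1, 4 DKO mice fell under the lowest Nf2 mouse. The log2 fold change was -0.48 ± 0.16 (edgeR adjusted p = 0.167).

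Casp1, Casp4 and Casp12 lie side by side on chromosome 9, with starts 10.3 kb and 46.9 kb beyond that of Casp1 for the latter pair. Casp12, a related caspase of the endoplasmic reticulum, was at 80.2 ± 9.45 CPM in Nf2 and 59.4 ± 10.6 in DKO (SD, n = 6), with an estimate of -0.46 ± 0.12 on the log2 scale (edgeR adjusted p = 0.0965). None of the 3 paralogues passed the threshold in edgeR, whereas Casp12 passed it in DESeq2 (adjusted p = 0.0182), as did Casp1 and 4.54% of all genes. The remaining tested genes with starts within 1000 kb were Kbtbd3 (0.10), Msantd4 (0.05), Gria4 (0.20) and Pdgfd (-0.89, adjusted p = 0.0552), and the direction was mixed among them. As the caspases are related in sequence, reads with several matches could be divided among them, and how such reads were counted is not given in the sources used here.

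Gsdmd, encoding the pore-forming effector, was at 10.9, 13.0 and 15.5 CPM in Nf2 and at 9.13, 10.6 and 12.3 CPM in DKO. The 6 DKO mice were all below the Nf2 mean of 12.9 CPM, although the ranges overlapped. Its log2 fold change was -0.31 ± 0.10 (edgeR adjusted p = 0.174). Gsdmd lies on chromosome 15, 2.44 Mb from Ptk2, the gene whose floxed allele only the DKO mice carry. Genotype and the chromosome segment around that allele cannot be told apart here.

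Neither cytokine gene passed the threshold. Il1b, the interleukin-1β gene, was among the lowest of the 10, at 0.639, 1.33 and 2.02 CPM in Nf2 and 0.485, 0.903 and 1.18 CPM in DKO, or 15 to 59 reads per library. All DKO mice were below the Nf2 mean, but the ranges overlapped broadly, and the log2 fold change of -0.69 ± 0.30 did not pass (edgeR adjusted p = 0.308). With the muscle covariate the estimate was -0.42. The antisense gene Il1bos, whose exons overlap those of Il1b, had 2 to 7 reads per library over its whole length. Reads in the overlap were not counted apart. Il18 was at 8.77, 9.53 and 10.7 CPM in Nf2 and 6.79, 9.39 and 12.4 CPM in DKO. Its difference was -0.03 ± 0.14 on the log2 scale (adjusted p = 0.939), and its spread was wider in DKO (SD 2.14 CPM) than in Nf2 (0.799 CPM).

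The upstream components were abundant and close in level between genotypes. Nek7, a kinase that bridges NLRP3 subunits, was at 302, 339 and 368 CPM in Nf2 and at 307, 335 and 435 CPM in DKO, with an estimate of 0.03 ± 0.08 on the log2 scale (edgeR adjusted p = 0.914). Txnip, the thioredoxin-binding protein reported to engage NLRP3 under oxidative stress, was at 200, 227 and 318 CPM in Nf2 and at 184, 220 and 356 CPM in DKO (-0.03 ± 0.16, adjusted p = 0.950). DKO mouse 886 was the highest of its group for both. P2rx7, the ATP-gated channel through which potassium leaves the cell, was at 72.7, 78.8 and 92.8 CPM in Nf2 and at 53.9, 73.5 and 91.8 CPM in DKO (-0.17 ± 0.11, adjusted p = 0.513). None of these differences exceeded the spread between mice.

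Scaled to exon length, the 10 genes spanned 2 orders of magnitude. Exon length is here the union of all exons annotated for a gene, 3.8 kb for Pycard. It can exceed the length of the transcript present and so understate a level, and the order depends on it. In Nf2 the levels per kilobase were 76.8 ± 14.1 CPM for Txnip, 45.6 ± 3.10 for Nek7, 16.5 ± 2.38 for Casp1, 13.6 ± 1.42 for P2rx7, 9.36 ± 0.775 for Il18 and 5.41 ± 0.708 for Gsdmd (SD, n = 6). Casp4 followed at 4.59 ± 0.314, Pycard at 1.27 ± 0.175, Il1b at 0.703 ± 0.293 and Nlrp3 at 0.680 ± 0.216. Among neighbours in this order, the ranges of Casp1 and P2rx7 overlapped, as did those of Gsdmd and Casp4, of Pycard and Il1b, and of Il1b and Nlrp3, while the other neighbours were separate. The sensor and its cytokine were thus the scarcest transcripts of the set in Nf2 ganglia, while the upstream kinase and Txnip were the most abundant. In DKO, Nlrp3 was again lowest, at 0.316 ± 0.064 CPM per kilobase, with Il1b at 0.447 ± 0.132.

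**Figure D2:**
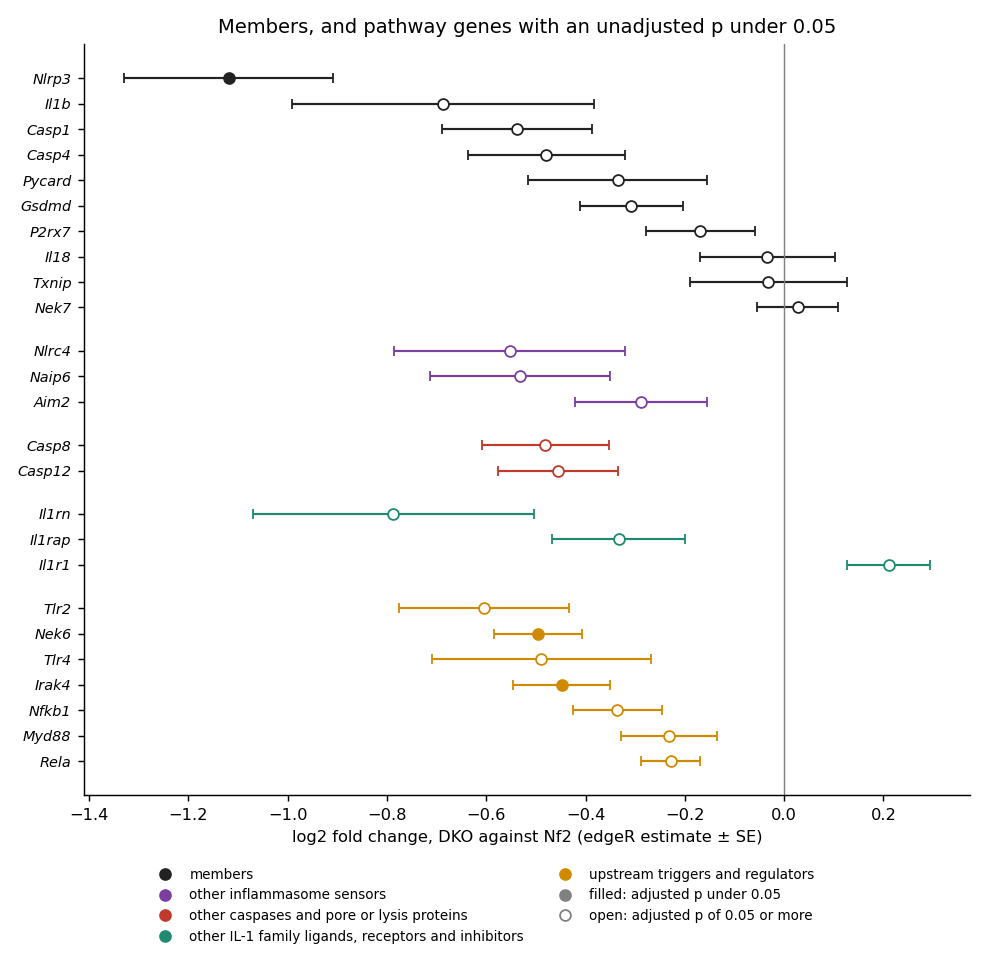
Log2 fold change of DKO against Nf2 with its SE from edgeR (n = 6 per genotype) for the 10 members, in black, and for the 15 genes of 4 wider pathway lists with an unadjusted p under 0.05, in colours by list. Filled points have an adjusted p under 0.05: Nlrp3 at -1.12, Nek6 at -0.50 and Irak4 at -0.45; Il1r1 and Nek7 are the points right of 0.

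A wider set of 58 genes around the inflammasome was examined in 4 lists, of which 50 genes were expressed highly enough to be tested. The lists were written with earlier results of these data known, so the counts over them here and below are descriptions and not support. The estimate was below 0 for 38 of the 50, with a median log2 fold change of -0.12. Over all genes tested, 49.0% had an estimate below 0. Past the threshold were 2 of the 50, both lower in DKO, and none was higher, against 0.940% of all genes. At an unadjusted p under 0.05 stood 14 lower genes and 1 higher gene, against 14.9% of all genes in either direction.

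Among other sensors, 8 of 12 were tested and 6 had lower estimates, with none past the threshold. For Nlrc4, the sensor of bacterial flagellin and secretion systems, the log2 difference was -0.55 ± 0.23 (edgeR adjusted p = 0.281). Naip6, one of its partners, was at -0.53 ± 0.18 (adjusted p = 0.176), and the DNA sensor Aim2 at -0.29 ± 0.13 (adjusted p = 0.330). Nlrp3 was thus the sole sensor gene past the threshold, but whether its difference was larger than those of the other sensors was not tested. The most abundant of the others, Naip5 and Naip1, were at -0.21 ± 0.19 and 0.04 ± 0.18, and the Naip genes are near-identical copies whose reads may be divided uncertainly.

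Of the other caspases and membrane-lysis genes, 8 of 10 were tested, 6 had lower estimates and none passed in edgeR. Casp8, the apoptotic initiator that can also cleave interleukin-1β, was at 8.03 ± 1.14 CPM in Nf2 and 5.83 ± 0.813 in DKO (SD, n = 6). Of the 6 DKO mice, 5 were under the lowest Nf2 mouse (log2 fold change -0.48 ± 0.13, edgeR adjusted p = 0.100). Casp8 passed in DESeq2 (adjusted p = 0.0162), as did 4.54% of all genes. Ninj1, which ruptures the membrane of dying cells, had a difference of -0.11 ± 0.06, and the second gasdermin gene with sizeable expression, Gsdme, had one of 0.23 ± 0.14.

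In the IL-1 family, 11 of 12 genes were tested, 7 with lower estimates and none past the threshold. Il1rn, the gene of the receptor antagonist, had the most negative estimate, -0.79 ± 0.28 (edgeR adjusted p = 0.200), which shrank to -0.52 without Nf2 mouse 1049 and to -0.47 with the muscle covariate. The co-receptor gene Il1rap was at -0.33 ± 0.13 (adjusted p = 0.254). Il1r1, the signalling receptor for interleukin-1, had a positive estimate of 0.21 ± 0.08 (adjusted p = 0.251). The alarmin gene Il33, at 20.9 ± 3.76 CPM in Nf2 and 19.98 ± 3.97 in DKO (SD, n = 6), and the interleukin-18 inhibitor Il18bp (-0.05 ± 0.24) showed no difference beyond the spread.

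The largest list, upstream triggers and regulators, held both genes past the threshold, and 19 of its 23 tested genes had lower estimates. Nek6, a paralogue of Nek7, ranged from 79.4 to 95.7 CPM in Nf2 and from 50.0 to 72.9 CPM in DKO without overlap. The log2 fold change was -0.50 ± 0.09 (edgeR adjusted p = 0.0194) beside 0.03 ± 0.08 for Nek7, and the difference between these paralogues was not tested. Without mouse 702, 885, 917 or 918 the adjusted p for Nek6 was 0.0509 to 0.0610. Irak4, the kinase downstream of Toll-like and interleukin-1 receptors, ranged from 9.64 to 12.6 CPM in Nf2 and from 7.43 to 9.23 CPM in DKO (-0.45 ± 0.10, adjusted p = 0.0490). It lies 21.1 Mb from Ptk2 on chromosome 15. Its call was at the edge of the threshold: with 1 mouse left out it was kept only without Nf2 mouse 1048 (adjusted p = 0.0291), and over all alternatives in 6 of 24.

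An unadjusted p under 0.05 was reached by 7 of the 23 tested genes of this list, all with lower estimates, against 14.9% of all genes. Apart from Nek6 and Irak4 they were genes of Toll-like receptor and NF-κB signalling, named here for that p. The receptor genes Tlr2 and Tlr4 had log2 fold changes of -0.60 ± 0.17 (edgeR adjusted p = 0.112) and -0.49 ± 0.22 (adjusted p = 0.318), and for the adaptor gene Myd88 it was -0.23 ± 0.10 (adjusted p = 0.273). Nfkb1, which encodes the p50 precursor, was at 89.3 ± 7.47 CPM in Nf2 and 71.8 ± 8.86 in DKO (SD, n = 6; -0.34 ± 0.09, adjusted p = 0.0975). Rela, which encodes the p65 subunit, ranged from 59.2 to 68.3 CPM in Nf2 and from 49.1 to 58.0 in DKO. Its groups did not overlap although the difference was only -0.23 ± 0.06 (adjusted p = 0.0870). DESeq2, in which 4.54% of all genes passed, placed Tlr2 (adjusted p = 0.0221), Nfkb1 (adjusted p = 0.0209) and Rela (adjusted p = 0.0102) past the threshold. Without DKO mouse 885, edgeR placed Tlr2 there too (adjusted p = 0.0398). The most abundant regulators, Hsp90ab1 (-0.10 ± 0.10), Ctsb (-0.04 ± 0.06) and Txn1 (-0.14 ± 0.15), differed by less than the spread.

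Because Nlrp3, Casp1 and Il1b are known as myeloid transcripts, the macrophage and monocyte markers were set beside them. In bulk tissue, fewer cells of a type and less RNA per cell cannot be told apart. Of 24 marker genes, 19 had lower estimates in DKO, with a median log2 fold change of -0.35, and none was at 0 in all mice. An unadjusted p under 0.05 in edgeR was reached by 13 lower and 2 higher genes of the list, against 14.9% of all genes in either direction. The list was written with earlier results of these data known, and single markers are named here after their values were seen. C1qb, a complement gene of tissue macrophages, passed the threshold (-0.71 ± 0.12, edgeR adjusted p = 0.0138), and the receptor gene Csf1r, on which macrophage survival depends, was just short of it (-0.65 ± 0.15, adjusted p = 0.0566). In the opposite direction Cd163 had an estimate of 1.48 ± 0.49 (adjusted p = 0.169), Mertk of 0.41 ± 0.19 (adjusted p = 0.321) and Lyz2 of 0.38 ± 0.19 (adjusted p = 0.372). The summed marker level was 437 to 641 CPM in Nf2 and 407 to 575 CPM in DKO, a difference of -0.20 on the log2 scale (two-sided exact permutation p = 0.0887, n = 6 per genotype). Lyz2 had the highest mean of the 24 markers in both genotypes, so its higher level in DKO offset part of the lower markers in this sum. The sum thus fell less than the median marker (-0.35), and its difference without Lyz2 was not tested. It does not show that macrophage RNA was unchanged.

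Relative to that summed level, Nlrp3 remained lower in DKO. Per 1000 CPM of macrophage markers it stood at 3.43 to 7.63 CPM in Nf2 and at 2.21 to 2.95 CPM in DKO. The ratio differed by -0.88 on the log2 scale (two-sided exact permutation p = 0.00216, the smallest that 6 against 6 mice can give), and all 6 DKO mice were below all Nf2 mice. Nf2 mice 1048 and 1049 had the highest ratios, 7.63 and 7.25, and mouse 1048 also had the lowest marker sum of its group. With either mouse left out the difference was -0.74 or -0.75 (exact permutation p = 0.00216 in both cases), and with Lyz2 and Cd14 removed from the list it was -0.73 (exact permutation p = 0.00866). With the mean log2(CPM + 1) of the markers in place of their sum, the difference was -0.87 (exact permutation p = 0.00216). The ratio rests on the chosen list, whose members moved in both directions, and Lyz2 had the largest part in the sum.

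For none of the other 9 genes did the ratio to the marker level differ between genotypes at an exact p under 0.05. Casp1 was at -0.34 on the log2 scale (two-sided exact permutation p = 0.113), Casp4 at -0.31 (exact permutation p = 0.199) and Il1b at -0.40 (exact permutation p = 0.229). The Il1b ratio was -0.60 without Nf2 mouse 649 (exact permutation p = 0.0541) and -0.24 without DKO mouse 914, the Casp4 ratio -0.18 without DKO mouse 917, and the Casp1 ratio -0.19 with Lyz2 and Cd14 removed from the list. Pycard (-0.16) and Gsdmd (-0.09) were nearer to 0. Nek7, abundant outside myeloid cells, had a ratio of 0.24 (exact permutation p = 0.0931), in the opposite direction, and without Nf2 mouse 1048 it was 0.33 (exact permutation p = 0.00433). Without DKO mouse 887, in which Casp1 was highest, Casp1 and Casp4 were at -0.48 (exact permutation p = 0.0173) and -0.46 (exact permutation p = 0.0368) relative to the markers.

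**Figure D3:**
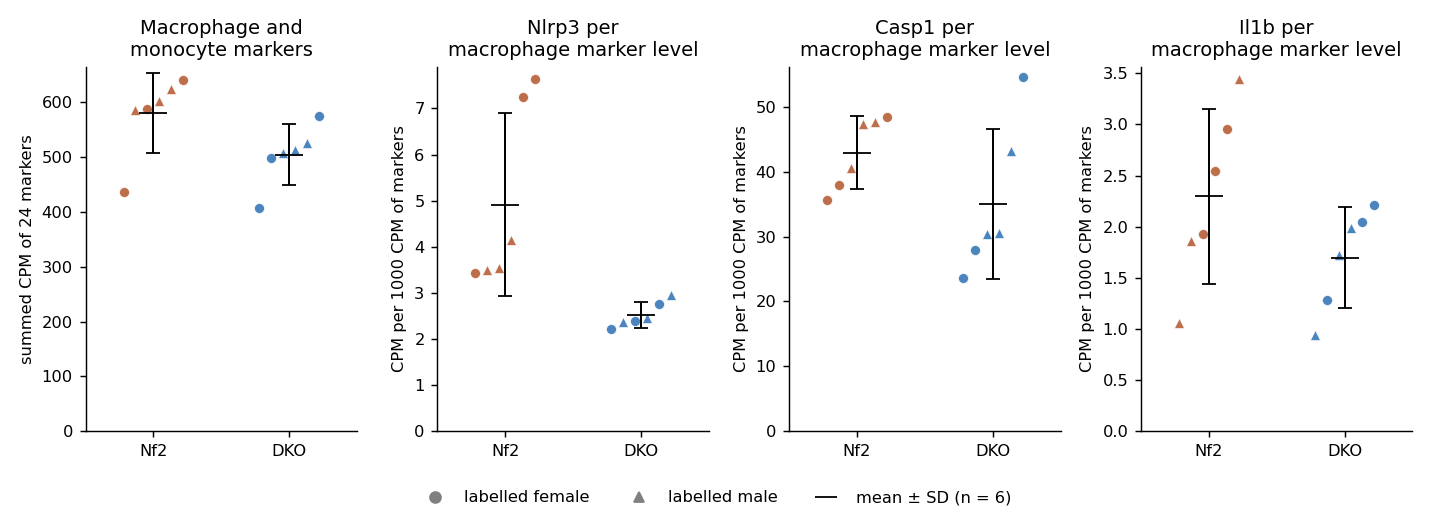
Left, summed CPM of 24 macrophage and monocyte markers per mouse; right, CPM of Nlrp3, Casp1 and Il1b per 1000 CPM of those markers, 1 point per mouse (circles labelled female, triangles labelled male) with mean ± SD (n = 6) and axes from 0. The marker sums overlap (437 to 641 in Nf2, 407 to 575 in DKO), the Nlrp3 ratios do not (3.43 to 7.63 against 2.21 to 2.95), and the Casp1 and Il1b ratios do.

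Neutrophil markers, the other plausible myeloid source of Nlrp3 and Il1b, were higher in estimate in DKO for all 10 genes, without any past the threshold. Their summed level ranged from 10.9 to 549 CPM in Nf2 and from 16.3 to 457 CPM in DKO. The highest sum was that of Nf2 mouse 1049, which also had the highest Nlrp3 (4.26 CPM). Nf2 mouse 1048, next highest for Nlrp3, had a sum of 64.2 CPM. DKO mouse 917, next highest for the sum, had Nlrp3 at 1.55 CPM. Of the T and NK cell markers, 7 of the 8 tested had lower estimates (summed level 4.51 to 8.63 CPM in Nf2, 3.92 to 7.17 in DKO). Schwann cell markers, from the lineage in which Cre acts, overlapped fully (8953 to 11889 summed CPM in Nf2, 8674 to 12407 in DKO). The part of these lists in the inflammasome differences was not tested.

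Across mice, after the mean of each genotype was removed, Nlrp3 was compared with 11969 genes. They had a mean of at least 5 CPM, except that the inflammasome genes were kept at any level. The 5 genes most like Nlrp3 were Adpgk (Pearson r = 0.86, Spearman rho 0.67), Rsad1 (0.86, 0.80), Rhobtb1 (0.86, 0.69), Mpo (0.86, 0.80) and Hmgn2 (0.81, 0.81). These are descriptions over 12 libraries that differed in depth and composition, and the part of those differences in the correlations was not tested. Mpo is also 1 of the neutrophil markers above. No inflammasome gene was near the top: the values ran from 0.02 for Gsdmd to -0.40 for Casp1 and -0.41 for Txnip. Il1b stood at -0.05 and Pycard at -0.09.

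The settings of the comparison changed which of the genes counted as different, but not the direction of the 6 leading estimates. Nlrp3, Pycard, Casp1, Casp4, Gsdmd and Il1b were lower in DKO under each of the 24 alternatives to the fit with all 12 mice. For Nlrp3 the log2 fold change lay between -1.40 and -0.70, and 18 of the 24 kept an adjusted p under 0.05. Within mice labelled female alone it was -1.40 (edgeR adjusted p = 0.211) and within mice labelled male alone -0.81 (adjusted p = 0.378), in fits with 3 mice per genotype.

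**Figure D4:**
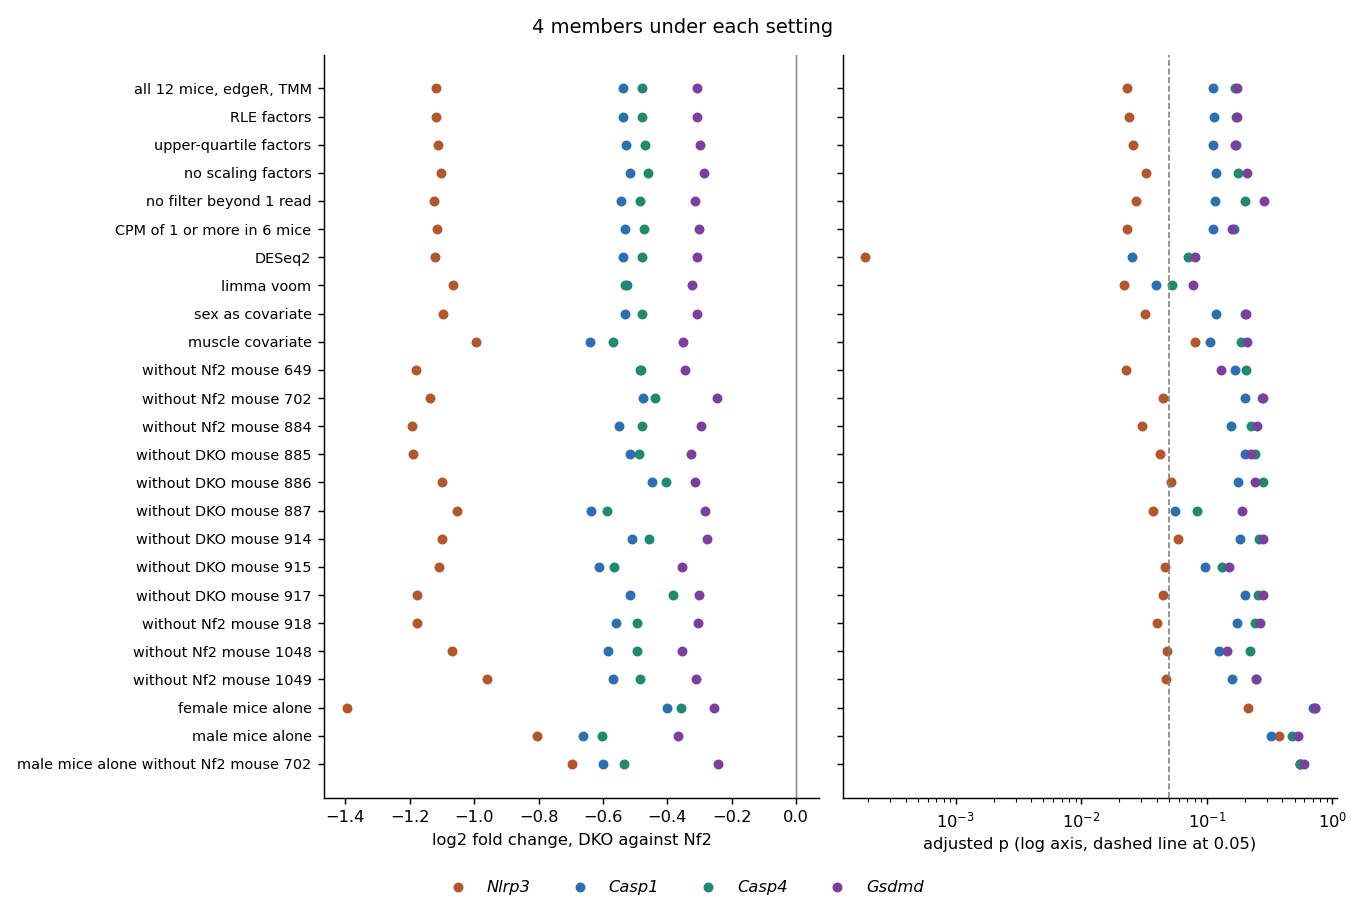
Log2 fold change (left) and adjusted p (right, log axis, dashed line at 0.05) of Nlrp3, Casp1, Casp4 and Gsdmd, DKO against Nf2, in the fit with all 12 mice (top row) and in 24 alternatives named at the left. Each estimate lies left of 0; Nlrp3 is beyond -0.69 throughout and under 0.05 in 18 alternatives, Casp1 in 2, and Casp4 and Gsdmd in none.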

How the data were processed

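RNA of 8 dorsal root ganglia from each of 12 mice was extracted, poly(A) selected and sequenced by a commercial provider. The authors deposited raw counts, 1 whole-number count per Ensembl gene and mouse; per the labels' processing notes these came from Trimmomatic 0.36, STAR 2.5.2b and featureCounts of Subread 1.5.2 on GRCm38. Settings for strand and multiply matching reads are not given in the sources used here.

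Genes were matched to GENCODE M21 (48970 of 49315) for position and exon length. Genes with low counts were removed with filterByExpr by genotype, counts were scaled by TMM, and genotypes were compared with the quasi-likelihood test of edgeR 4.0.16 (R 4.3.3) without covariates, since the study stated none. P-values were adjusted by Benjamini-Hochberg over all 18295 genes tested, with a threshold of 0.05. Alternatives were DESeq2 1.42.0, limma 3.58.1 (voom), other scalings and filters, covariates, each mouse left out, and each sex alone. On simulated counts edgeR recovered known changes before use. The planted changes were larger than the estimates of all members but Nlrp3, so recovery of such smaller changes was not shown. Levels are CPM of the library total, with exact Poisson intervals that cover counting error only. Ratios to marker sums were tested by exact permutation. The 10 members and all lists were chosen with earlier results of these data known. Text names every member, the pathway genes called or with an unadjusted p under 0.05, up to 3 abundant others per list, and the 5 genes most like Nlrp3; Casp1's neighbours and single macrophage markers were added after their values were seen. The mouse numbers differ between genotypes, so samples were not paired.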

Additional observations from a re-analysis of the deposited data

Results flagged for a closer look

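A gap test for single samples that stand apart (Dixon's, 95%) was applied to 22 groups of 6 mice, of which about 1.1 would be marked by chance, and it marked 4. Casp4 in Nf2 mouse 702, whose sex label and Xist level disagreed, was at 19.3 CPM with the nearest Nf2 mouse at 17.1. Nek7 in DKO mouse 886 was at 435 CPM, with the nearest at 348. Txnip in the same mouse was at 356 CPM, with the nearest at 240. The summed macrophage and monocyte markers of Nf2 mouse 1048 were at 437 CPM, with the nearest Nf2 mouse at 586. Without DKO mouse 886 the Nek7 estimate was -0.05 on the log2 scale (edgeR adjusted p = 0.793).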

How the results depend on the processing

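Of the 10 members, 1 was past the threshold in edgeR with all 12 mice, 2 with DESeq2 or limma voom (Casp1 being the added gene), and 0 with the muscle covariate, in mice labelled female alone, in mice labelled male alone, and in those males without mouse 702, the last added after the data were seen; leaving out 1 mouse gave 0 to 1. Over all genes the count of 172 became 831 with DESeq2, 521 with voom, 101 with the muscle covariate, 57 in females alone, 2 in males alone, 9 in males without mouse 702, and 81 to 217 with 1 mouse left out. Of the pathway genes, 2 passed; the count was 7 with DESeq2, 1 without scaling factors, without the filter, with sex or with the muscle covariate, 0 in either sex alone or in males without mouse 702, and 0 to 2 with 1 mouse left out. The number of members whose ratio to the macrophage markers had an exact p under 0.05 was 1, and 2 without Lyz2 and Cd14 (Nek7 added), and 1 to 3 with 1 mouse left out.

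Signs turned only for members near 0. Il18 was at 0.049 without DKO mouse 885, 0.020 without DKO mouse 914 (range with 1 mouse left out -0.12 to 0.049), 0.077 in males alone and 0.13 in males without mouse 702. Nek7 was at -0.047 without DKO mouse 886 (range -0.047 to 0.054) and -0.026 in males alone. Txnip was at 0.034 without DKO mouse 917, 0.065 without Nf2 mouse 918 (range -0.18 to 0.065) and 0.10 in females alone. P2rx7 was at 0.0072 in males without mouse 702. The genotype by sex term of Gsdmd was 0.0093 without mouse 702, its ratio to the markers 0.061 without Lyz2 and Cd14, and that of P2rx7 -0.0046 and -0.027 without DKO mice 887 and 915 (range -0.027 to 0.12). Apart from the steps that the alternatives themselves define, such as fewer mice, the cause was not tested.

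With 15 to 114 reads per library, Nlrp3 and Il1b carried the widest counting error of the members. No paired analysis was possible because the mouse numbers are not shared between genotypes.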
